A study of Homo sapiens with 9 samples.

Results

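The Hedgehog receptor and transcription factor genes PTCH1, SMO, GLI1, GLI2, GLI3, HHIP and SUFU were followed in LX2 cells, an immortalised human hepatic stellate cell line, after knockdown of YAP or TAZ. The 7 genes were taken by symbol from the 36601 gene identifiers of the count data, each symbol matched 1 identifier, and all 7 passed the filter on low counts that left 15560 genes for testing. Of the 9 RNA-seq libraries, 3 came from cells given non-targeting siRNA (siNT), 3 from cells given siRNA against YAP (siYAP) and 3 from cells given siRNA against TAZ (siTAZ). In each group the siRNA was used at 20 nM for 7 days, delivered by lipofection, in medium with serum; the cells were labelled wild type, and no Hedgehog ligand or inhibitor is named in the labels. YAP (gene YAP1) and TAZ (gene WWTR1) are coactivators held in check by the Hippo kinase cascade, and they act on chromatin mainly through TEAD proteins. The design text calls the 3 libraries of a group biological replicates; all come from 1 cell line, and the composition of the siRNA reagents was not part of the labels.

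Hedgehog ligands bind the receptor PTCH1, which otherwise keeps the membrane protein SMO inactive. Active SMO, acting at the primary cilium, frees the GLI factors from the restraint of SUFU, so that GLI2 and GLI3 can act as activators. Without ligand, GLI3 is the one best known for being processed into a repressor. GLI1, PTCH1 and HHIP are themselves classical GLI target genes, and in the liver the pathway is known for its part in the activation of stellate cells into myofibroblasts.

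Promoter windows are shown for PTCH1, SMO and GLI2, chosen among the members that passed the test between the knockdowns. In the promoter table used here, 5 of the 7 members (PTCH1, SMO, GLI2, HHIP and SUFU) matched 10 windows in all, each running from 250 bases before an annotated start to 50 bases after it (RefSeq, GRCh38.p14). PTCH1 had 5 such windows and GLI2 had 2. The windows were searched on both strands for the GLI word GACCACCCA, or TGGGTGGTC in reverse, and for the TEAD word CATTCC, or GGAATG in reverse; the words do not overlap each other in these windows. Capitals mark a match, and the lines below run 5′ to 3′ on the gene's own strand. The PTCH1 window is chr9:95509217-95509516 on the minus strand, at a start inside the annotated gene, the SMO window is chr7:129188383-129188682 on the plus strand, and the GLI2 window is chr2:120735618-120735917 on the plus strand.
PTCH1: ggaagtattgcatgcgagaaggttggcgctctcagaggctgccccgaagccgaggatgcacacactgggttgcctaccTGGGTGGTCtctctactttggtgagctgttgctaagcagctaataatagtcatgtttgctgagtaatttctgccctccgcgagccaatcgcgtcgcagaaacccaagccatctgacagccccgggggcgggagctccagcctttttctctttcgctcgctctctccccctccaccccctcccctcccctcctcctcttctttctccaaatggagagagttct
SMO: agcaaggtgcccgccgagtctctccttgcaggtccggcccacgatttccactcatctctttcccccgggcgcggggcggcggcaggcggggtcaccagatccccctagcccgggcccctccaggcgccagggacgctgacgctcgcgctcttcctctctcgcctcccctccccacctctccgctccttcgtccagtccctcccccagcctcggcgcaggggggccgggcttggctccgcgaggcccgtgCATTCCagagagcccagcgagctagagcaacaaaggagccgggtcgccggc
GLI2: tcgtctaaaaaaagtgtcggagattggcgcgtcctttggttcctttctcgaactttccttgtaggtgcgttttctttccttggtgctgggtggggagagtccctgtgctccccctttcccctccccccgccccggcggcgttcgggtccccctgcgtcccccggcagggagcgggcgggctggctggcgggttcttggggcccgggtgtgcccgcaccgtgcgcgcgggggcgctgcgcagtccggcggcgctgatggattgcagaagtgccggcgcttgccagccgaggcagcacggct
The PTCH1 window holds the GLI word without mismatch at bases 79 to 87, a match that 83 of 35116 windows of the same length (0.236%) hold. Of the 5 PTCH1 windows it is the only one with an exact match, while that share is per window and not per gene. Another 2 PTCH1 windows, which overlap each other, hold GAGCACCCA, a match with 1 mismatch, and 6.74% of all windows hold the word with 1 mismatch or none. The remaining PTCH1 windows hold neither word. The SMO window holds the TEAD word at bases 250 to 255, across the start, as do 14.0% of all windows. Neither word was found in the GLI2, HHIP and SUFU windows. These matches describe the letters only, since no binding was measured.

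Library totals lay between 16498508 and 18752805 counts in genes, so that 1 count equals 0.0522 to 0.0591 CPM (the usual depth-normalised count, here with TMM-scaled library sizes) and 3 counts equal 0.157 to 0.177 CPM; such limits cover counting error only. YAP1 stood at 209 ± 4.11 CPM in siNT (mean ± SD, n = 3 here and below), 26.3 ± 1.49 in siYAP and 170 ± 8.01 in siTAZ. WWTR1 stood at 62.0 ± 5.5, 75.8 ± 0.522 and 9.54 ± 0.917 CPM. YAP1 thus fell by 87.4% with siYAP and WWTR1 fell by 84.6% with siTAZ, while YAP1 also fell by 18.8% with siTAZ and WWTR1 rose by 22.3% with siYAP (edgeR adjusted p = 2.42e-08 and 6.31e-05). Of 12 stellate cell or myofibroblast markers LRAT, the retinol esterifying enzyme, was at 0 in all 9 libraries, and their summed level was 6710 to 6820 CPM in siNT, 3860 to 3920 in siYAP and 10200 to 10300 in siTAZ. COL1A1 and COL3A1 carried most of that sum, and the list did not move as one. With siYAP COL1A1 fell 2.04-fold, COL3A1 1.56-fold, TAGLN 6.95-fold, PDGFRB 2.8-fold, HAND2 1.44-fold and VIM 1.09-fold. In the same comparison COL1A2 rose 2.10-fold, ACTA2 1.57-fold, PDGFRA 2.12-fold and RELN 5.17-fold. With siTAZ COL1A1 rose 1.5-fold, COL3A1 1.78-fold, COL1A2 2.67-fold, ACTA2 3.16-fold, TAGLN 1.39-fold and PDGFRA 1.61-fold. VIM fell 1.32-fold with siTAZ, and PDGFRB, RELN and HAND2 were not called. Summed levels of 6 hepatocyte markers were 1.9 to 2.0, 12.8 to 16.0 and 0.704 to 2.13 CPM, nearly all from SERPINA1 (1.89, 14.7 and 1.47 CPM), while TTR was at 0 throughout and ALB, APOA1, CYP3A4 and HNF4A had at most 3 counts in a library. Those of 5 cholangiocyte markers were 50.2 to 52.6, 79.9 to 83.1 and 68.5 to 72.5 CPM, mostly SOX9 (49.1, 79.96 and 68.4 CPM). Sums for 6 macrophage markers were 13.1 to 14.9, 12.3 to 14.9 and 10.4 to 12.4 CPM, and for 5 endothelial markers 7.87 to 8.57, 8.51 to 11.6 and 3.36 to 4.48 CPM. The endothelial sum with siYAP joined opposite changes, with PECAM1 12.3-fold and KDR 2.39-fold higher and CDH5 14.3-fold lower, while VWF stood at 0.882 CPM in siNT and 0.191 in siYAP. Among the macrophage markers CSF1R rose 3.47-fold with siYAP and PTPRC went from 2.599 to 0.147 CPM, a level under the floor of 3 counts. Their part in the Hedgehog values was not tested, and in bulk RNA fewer cells of a type and less RNA per cell cannot be told apart.

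The 2 knockdowns gave different patterns over the 7 genes. With siYAP, SMO, PTCH1, GLI2 and HHIP fell and GLI3 rose; with siTAZ, GLI1, GLI2 and PTCH1 rose. Measured directly between the knockdowns, PTCH1, SMO, GLI1 and GLI2 were higher and GLI3 was lower in siTAZ than in siYAP. Calls rest on edgeR's quasi-likelihood test, with p-values adjusted by the Benjamini-Hochberg method across 15560 genes and a threshold of 0.05; these are the values written as edgeR adjusted p. In siYAP against siNT 5 of the 7 were called, where 67.1% of all genes tested were called; 1 was higher (33.8% of all genes) and 4 were lower (33.4%). In siTAZ against siNT 3 were called, against 34.6% of all genes; 3 were higher (16.4%) and 0 were lower (18.2%). No member was lower in that comparison at an unadjusted p under 0.05 either, and DESeq2 and limma-voom also gave 0. In siTAZ against siYAP 5 were called, against 66.2% of all genes; 4 were higher (33.0%) and 1 was lower (33.2%). With 7 genes, counts of 5, 3 and 5 called members lay near the share called among all genes in each comparison. The median log2 fold change of the 7 was -0.23, 0.14 and 0.77 in the 3 comparisons, beside 0.02, 0.01 and -0.01 over all genes tested. The comparisons of each knockdown with siNT share the same 3 control libraries, so their values are given side by side and are not independent.

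**Figure D1:**
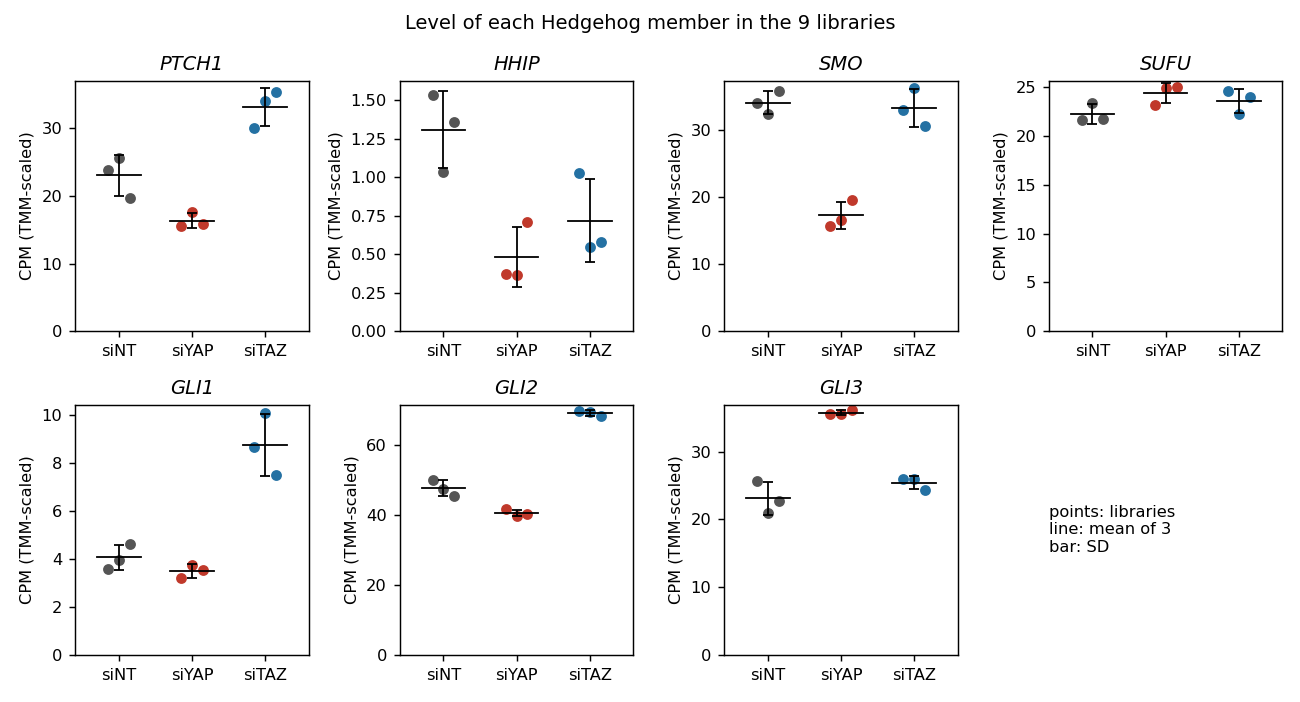
CPM of the 7 members in the 9 libraries, 1 panel per gene with its own axis from 0; points are libraries, lines are means of 3 and bars are SD. PTCH1, GLI1 and GLI2 are highest in the siTAZ libraries, SMO is lowest and GLI3 highest in the siYAP libraries, and the SUFU groups overlap.

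PTCH1, the Hedgehog receptor (ENSG00000185920, chromosome 9, 95442980 to 95517057, minus strand; GENCODE 29 on GRCh38 here and below), fell with siYAP and rose with siTAZ. Its counts were 403, 446 and 348 in siNT, 292, 337 and 267 in siYAP, and 554, 622 and 614 in siTAZ. In CPM the libraries stood at 23.8, 25.7 and 19.7 in siNT, at 15.5, 17.6 and 15.8 in siYAP, and at 30.0, 34.0 and 35.4 in siTAZ. All 3 siYAP libraries lay below and all 3 siTAZ libraries above every siNT library. Of all genes tested, 70.5% did not overlap siNT with siYAP and 44.6% did not with siTAZ. These shares also stand beside the members below. The siYAP mean was 1.41-fold lower than that of siNT (log2 fold change -0.50, SE 0.10, edgeR adjusted p = 1.12e-05), and the siTAZ mean was 1.44-fold higher (0.52, SE 0.09, edgeR adjusted p = 3.98e-06). Between the knockdowns the siTAZ mean was 2.03-fold that of siYAP. An antisense gene, AL161729.1, overlaps 711 of the 16591 exonic bases of PTCH1, and without the strand setting, which the labels do not state, reads of the overlap cannot be assigned.

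HHIP (ENSG00000164161, chromosome 4, 144646021 to 144745271, plus strand) encodes a membrane protein that binds Hedgehog ligands and limits signalling. It was by far the rarest member, with 26, 18 and 24 counts in siNT, 7, 7 and 12 in siYAP, and 19, 10 and 10 in siTAZ. In CPM these were 1.53, 1.04 and 1.36, then 0.372, 0.365 and 0.710, then 1.03, 0.546 and 0.577. Neither knockdown group overlapped siNT in CPM, and the knockdown groups overlapped each other. For siTAZ the gap was under 1 count, from 1.028 CPM (19 counts) in siTAZ replicate 1 to 1.036 CPM (18 counts) in siNT replicate 2. The raw counts of siTAZ and siNT thus overlapped. HHIP fell 2.71-fold with siYAP (log2 fold change -1.44, SE 0.49, edgeR adjusted p = 0.00801). For siTAZ the log2 fold change was -0.86 (SE 0.46, edgeR adjusted p = 0.152, 95% interval -1.77 to 0.05), so that a fall of the size seen with siYAP lies inside its interval. The filter on low counts asked for 0.552 CPM in 3 libraries of any group, a level that HHIP reached in 3 siNT, 1 siYAP and 2 siTAZ libraries. HHIP-AS1, on the other strand, overlaps 178 of its 12074 exonic bases.

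SMO (ENSG00000128602, chromosome 7, 129188872 to 129213545, plus strand), the signal transducer that PTCH1 restrains, fell with siYAP by more than PTCH1 or GLI2 on the log2 scale. Counts were 577, 565 and 634 in siNT, 295, 317 and 332 in siYAP, and 611, 665 and 531 in siTAZ. Scaled to CPM, siNT stood at 34.0, 32.5 and 35.9, siYAP at 15.7, 16.6 and 19.6, and siTAZ at 33.1, 36.3 and 30.6. The siYAP libraries lay below all others, whereas siNT and siTAZ libraries overlapped. The siYAP mean was 1.97-fold lower than siNT (log2 fold change -0.98, SE 0.09, edgeR adjusted p = 2.67e-15), and 9.67% of all genes tested had a lower log2 fold change. With siTAZ the log2 fold change was -0.03 (SE 0.08, edgeR adjusted p = 0.802), with a 95% interval of -0.20 to 0.13. Its sign turned when a single library was left out, to 0.003 without siNT replicate 3 and 0.024 without siTAZ replicate 3. SMO was the 1 member whose siYAP fall also passed edgeR's test against a fold of 1.5 (edgeR adjusted p = 2.06e-05), a test passed by 12.2% of all genes as lower and 12.6% as higher.

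SUFU (ENSG00000107882, chromosome 10, 102503987 to 102633535, plus strand) holds GLI proteins in the cytoplasm. Counts were 368, 407 and 384 in siNT, 436, 478 and 424 in siYAP, and 455, 408 and 417 in siTAZ, or 22.3 ± 0.983, 24.4 ± 1.05 and 23.6 ± 1.23 CPM. The groups overlapped in every comparison. Its log2 fold change was 0.13 with siYAP (SE 0.09, edgeR adjusted p = 0.194, 95% interval -0.05 to 0.31) and 0.09 with siTAZ (SE 0.09, edgeR adjusted p = 0.504, interval -0.09 to 0.26). These intervals leave room for changes of about the size seen for GLI2 with siYAP, so they do not show that SUFU was unaffected.

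GLI1 (ENSG00000111087, chromosome 12, 57460135 to 57472262, plus strand), an activator whose transcript is widely used as a readout of Hedgehog signalling, rose with siTAZ by a larger factor than the other members. Its counts were 61, 69 and 82 in siNT, 60, 72 and 60 in siYAP, and 160, 185 and 130 in siTAZ. The corresponding levels were 3.60, 3.97 and 4.64 CPM, then 3.19, 3.76 and 3.55, then 8.66, 10.1 and 7.5. Every siTAZ library stood above every other library, while siNT and siYAP overlapped. The siTAZ mean was 2.15-fold that of siNT (log2 fold change 1.10, SE 0.18, edgeR adjusted p = 1.04e-06), and 1.79% of all genes tested had a higher log2 fold change. This rise also passed the test against a fold of 1.5 (edgeR adjusted p = 0.0307), which 0.739% of all genes passed as higher and 1.46% as lower. With siYAP the log2 fold change was -0.22 (SE 0.20, edgeR adjusted p = 0.337, 95% interval -0.61 to 0.18), an interval that includes a fall as large as that of PTCH1. ARHGAP9, on the other strand, shares 8 of the 4204 exonic bases.

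GLI2 (ENSG00000074047, chromosome 2, 120735623 to 120992653, plus strand), the main activator among the full-length GLI proteins, moved in the same directions as PTCH1. Counts were 848, 825 and 801 in siNT, 781, 761 and 680 in siYAP, and 1287, 1272 and 1182 in siTAZ. In CPM these were 49.99, 47.5 and 45.3, then 41.6, 39.7 and 40.2, then 69.7, 69.5 and 68.2. The 3 groups did not overlap, and the siTAZ libraries lay within a narrow band (SD 0.801 CPM). The fall with siYAP was small, 1.18-fold (log2 fold change -0.23, SE 0.06, edgeR adjusted p = 0.00118), and 34.7% of all genes tested had a lower log2 fold change. The rise with siTAZ was 1.45-fold (0.54, SE 0.06, edgeR adjusted p = 5.7e-11), exceeded in log2 fold change by 7.71% of all genes.

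GLI3 (ENSG00000106571, chromosome 7, 41960950 to 42237870, minus strand), the family member best known as a repressor when Hedgehog ligand is absent, was the 1 member that rose with siYAP. Counts were 436, 364 and 400 in siNT, 667, 681 and 611 in siYAP, and 479, 475 and 422 in siTAZ. The siNT libraries stood at 25.7, 20.9 and 22.6 CPM, the siYAP libraries at 35.5, 35.6 and 36.1, and the siTAZ libraries at 25.9, 25.9 and 24.3. All siYAP libraries lay above the rest, and siTAZ overlapped siNT. The siYAP mean was 1.55-fold that of siNT (log2 fold change 0.63, SE 0.08, edgeR adjusted p = 1.13e-09). With siTAZ the log2 fold change was 0.14 (SE 0.09, edgeR adjusted p = 0.224, 95% interval -0.03 to 0.31). No other counted gene overlaps GLI3 or SUFU, and none shares exonic bases with GLI2.

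**Figure D2:**
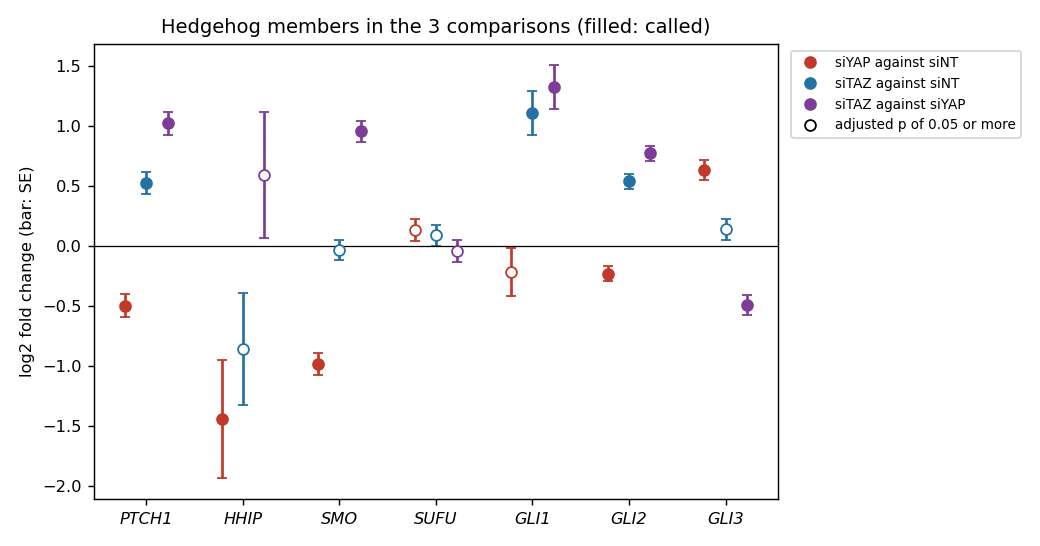
Log2 fold change of each member in the 3 comparisons, with bars of 1 SE from the fit over all 9 libraries; filled points have an edgeR adjusted p under 0.05. PTCH1 and GLI2 lie below 0 for siYAP and above 0 for siTAZ, SMO is filled for siYAP and open for siTAZ, and HHIP has the widest bars.

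The direct comparison of siTAZ with siYAP tests the difference between the knockdown effects, since the siNT term cancels. GLI1 showed the largest difference of the 7, with a siTAZ mean 2.5-fold that of siYAP (log2 difference 1.32, SE 0.18, edgeR adjusted p = 4.43e-09). PTCH1 differed by 1.02 (SE 0.10, edgeR adjusted p = 7.45e-15), SMO by 0.95 (SE 0.09, edgeR adjusted p = 1.03e-14) and GLI2 by 0.77 (SE 0.06, edgeR adjusted p = 2.14e-17). GLI3 differed the other way, by -0.49 (SE 0.08, edgeR adjusted p = 4.34e-07). The libraries of the groups did not overlap for any of these 5 genes, as for 68.2% of all genes tested. For HHIP the difference was 0.58 (SE 0.52, edgeR adjusted p = 0.331, 95% interval -0.44 to 1.61) and for SUFU -0.05 (SE 0.09, edgeR adjusted p = 0.675, interval -0.22 to 0.13). Against a fold of 1.5, PTCH1, SMO, GLI1 and GLI2 passed as higher in siTAZ, as did 11.2% of all genes, while GLI3 did not pass as lower (edgeR adjusted p = 1), which 12.2% of all genes did. The largest edgeR adjusted p among those 4 was 0.00233, for GLI2. By the plain test, without the fold of 1.5, PTCH1 and GLI2 were called against siNT in opposite directions with the 2 knockdowns. SMO, GLI3 and HHIP were called against siNT with siYAP only, and GLI1 with siTAZ only.

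Levels were compared between genes after division by exon length, as CPM per kilobase of merged exons. The merged exons are those of GENCODE 29, which may not be the annotation used for the counts. The ranges of the libraries do not cover an error in this length, so the order of the genes depends on it. In siNT the order was SMO (7.92), GLI2 (6.48), SUFU (3.25), GLI3 (2.11), PTCH1 (1.39), GLI1 (0.968) and HHIP (0.108), and the libraries of neighbours in that order did not overlap. HHIP thus stood above 3.77% of the tested genes and SMO above 62.8%. In siYAP GLI2 (5.52) stood above SMO (4.01), followed by SUFU (3.56), GLI3 (3.26), PTCH1 (0.983), GLI1 (0.832) and HHIP (0.0400). There the lowest SMO library, at 3.64, overlapped the highest SUFU library, at 3.65, while PTCH1 (0.936 to 1.06) and GLI1 (0.759 to 0.894) stayed apart. In siTAZ GLI2 (9.41) again led, ahead of SMO (7.73), SUFU (3.45) and GLI3 (2.32), and GLI1 (2.08, range 1.78 to 2.40) and PTCH1 (2.0, range 1.81 to 2.13) overlapped. GLI3, from 2.22 to 2.37 in siTAZ, overlapped GLI1 as well. The ratio of GLI2 to GLI3, the main activator to the main repressor, was 2.90, 3.38 and 2.99 in the siNT libraries, 1.75, 1.67 and 1.66 in siYAP, and 4.01, 3.99 and 4.18 in siTAZ. The 3 groups did not overlap in this ratio, which was picked after its values were seen and carries no test. The RNA ratio says nothing of how much of either protein is in its activator or repressor form. The ratio of PTCH1 to SMO, picked in the same way, was 0.176 ± 0.032 in siNT, 0.247 ± 0.035 in siYAP and 0.260 ± 0.035 in siTAZ.

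**Figure D3:**
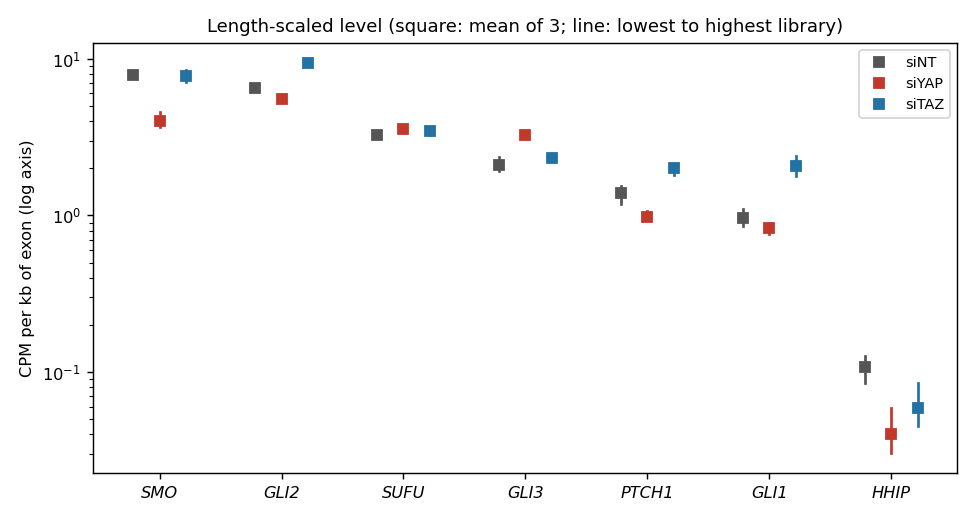
CPM per kilobase of merged exons for the 7 members on a log axis, ordered by their siNT mean; squares are means of 3 libraries and lines run from the lowest to the highest library. SMO leads in siNT, GLI2 leads in siYAP and siTAZ, and HHIP lies lowest in every group.

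Over the 9 libraries, Pearson's r of log2 CPM was 0.94 between PTCH1 and GLI2, 0.94 between GLI1 and GLI2, and -0.91 between SMO and GLI3. After removal of the group means these became 0.25, -0.57 and 0.32, so the correlations describe differences between groups of libraries and not variation within them. All 9 points share the 3 group levels, and no p is given. Among 10337 other genes (those with a symbol whose average log2 CPM reached 3), up to 2 genes most like each member over the 9 libraries were listed by r. Those reported were DCLK1 (0.980) for PTCH1, SFXN1 (0.995) and WDR76 (0.994) for SMO, and CERCAM (0.992) and F2R (0.983) for GLI1. For GLI2 they were ITGB3 (0.994) and ZC3HAV1L (0.992), and for GLI3 ZBTB37 (0.989) and LINC00654 (0.988). HHIP was most like ZMYM3 (0.956) and CRNKL1 (0.955), and SUFU was most like DESI1 (0.951) and TMEM8B (0.933). ITGB3, an integrin subunit, stood at 63.7 CPM in siNT, 44.3 in siYAP and 131 in siTAZ, and DCLK1, a microtubule-associated kinase, at 24.7, 16.9 and 42.3 CPM.

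The ligand genes lay near the floor of 3 counts in these cultures. SHH had 0 to 4 counts per library, IHH 0 to 3 and DHH 0 to 4, all with group means under 1 CPM, as had SCUBE1 (0 to 2 counts) and SCUBE2 (2 to 15), whose products help release lipid-bearing ligand. Of the 9 ligand, processing and release genes 5 were tested; 2 rose and 2 fell with siYAP (median log2 fold change -0.54), and 1 rose and 0 fell with siTAZ (-0.05), beside 33.8% of all genes higher and 33.4% lower with siYAP and 16.4% and 18.2% with siTAZ. At an unadjusted p under 0.05 and with DESeq2 the siTAZ count was again 1 and 0, and with limma-voom it was 0 and 0. DISP2, a relative of the ligand transporter DISP1, rose with siYAP from 10.4 ± 0.779 to 43.4 ± 3.22 CPM (log2 fold change 2.07, SE 0.10, edgeR adjusted p = 1.98e-28). SCUBE3 fell by 0.80 (SE 0.20) and HHAT, the acyltransferase that palmitoylates the ligands, fell by 0.54 (SE 0.16) on the log2 scale (edgeR adjusted p = 0.000439 and 0.00221). With siTAZ DISP2 stood at 12.7 ± 0.872 CPM (0.29, SE 0.11, edgeR adjusted p = 0.0332), a call lost with limma-voom, with no filter, with the compared groups alone and without siNT replicate 1 (adjusted p = 0.149), siNT replicate 3 (0.0678) or siTAZ replicate 2 (0.148).

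Of the 6 co-receptors and other surface binders reported here 3 were tested. LRP2 had 0 to 2 counts per library, GPC3 had 0 in all 9 and GPC5 had 1 to 6. With siYAP 0 rose and 1 fell (median log2 fold change -0.55; 0 and 2 at an unadjusted p under 0.05, 0 and 1 with DESeq2, 0 and 2 with limma-voom). BOC, a co-receptor that presents ligand to PTCH1, fell from 5.08 ± 0.449 to 2.85 ± 0.243 CPM (log2 fold change -0.83, SE 0.22, edgeR adjusted p = 0.000654). With siTAZ 1 rose and 1 fell (median -0.17). Of all genes 33.4% were lower with siYAP, and 34.6% were called with siTAZ. CDON, a close relative of BOC, fell from 10.7 ± 0.278 to 5.29 ± 0.403 CPM (-1.01, SE 0.15, edgeR adjusted p = 1.5e-07), while GAS1, another ligand co-receptor, rose from 1.63 ± 0.433 to 3.17 ± 0.807 CPM (0.96, SE 0.31, edgeR adjusted p = 0.0126). The GAS1 call was lost without siNT replicate 1 (adjusted p = 0.0752) or siTAZ replicate 2 (0.118).

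All 30 cytoplasmic and ciliary regulators of SMO and GLI were tested; 15 rose and 11 fell with siYAP (median log2 fold change 0.09), and 6 rose and 6 fell with siTAZ (0.00). Of all genes 67.1% were called with siYAP and 34.6% with siTAZ. The catalytic subunits of protein kinase A, which mark GLI proteins for processing, moved unequally. PRKACB fell with siYAP from 75.0 ± 2.78 to 31.5 ± 1.44 CPM (-1.25, SE 0.06, edgeR adjusted p = 2.91e-28) and rose with siTAZ to 105 ± 2.02 (0.49, SE 0.05, edgeR adjusted p = 1.65e-11). PRKACA fell with siTAZ from 198 ± 6.65 to 126 ± 6.07 CPM (-0.65, SE 0.04, edgeR adjusted p = 6.5e-21). It also fell with siYAP, by less, to 172.5 ± 5.59 CPM (-0.20, SE 0.04, edgeR adjusted p = 1.58e-05). ARRB1, a beta-arrestin, and GSK3B, a kinase that also acts on GLI proteins, rose with siYAP by 1.11 (SE 0.06) and 0.60 (SE 0.04) on the log2 scale (edgeR adjusted p = 4.57e-26 and 2.86e-20). CSNK1A1, a casein kinase, fell slightly with siTAZ (-0.24, SE 0.04, edgeR adjusted p = 5.75e-08).

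Of 20 genes known as GLI targets in other tissues 17 were tested. With siYAP 7 rose and 7 fell (median log2 fold change 0.00), and with siTAZ 2 rose and 4 fell (-0.06), against 67.1% and 34.6% of all genes called. SFRP1, a secreted Wnt inhibitor, fell with siYAP from 609 ± 39.6 to 150 ± 0.858 CPM (-2.03, SE 0.04, edgeR adjusted p = 8.27e-49). FOXM1, a cell cycle transcription factor, fell by 0.94 (SE 0.04) and IGFBP6, an IGF binding protein, by 1.14 (SE 0.07) on the log2 scale (edgeR adjusted p = 2.68e-32 and 9.79e-24). These 3 had the smallest adjusted p and all fell, but the 7 that rose with siYAP reached a log2 fold change of 2.17. Among those 7 were the cyclin genes CCND2, by 1.57 (SE 0.13), and CCND1, by 0.44 (SE 0.03) (edgeR adjusted p = 1.63e-16 and 7.68e-19). With siTAZ the D-type cyclins went opposite ways, CCND2 from 5.65 ± 0.521 to 11.6 ± 0.863 CPM (1.04, SE 0.14, edgeR adjusted p = 4.78e-09) and CCND1 from 418 ± 12.2 to 319 ± 1.96 CPM (-0.39, SE 0.03, edgeR adjusted p = 1.57e-15). GREM1, a BMP antagonist, fell by 0.20 on the log2 scale (SE 0.03, edgeR adjusted p = 1.05e-07).

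The 46 genes reported for ciliary transport, the transition zone and cilium GTPases were all tested; 10 rose and 10 fell with siYAP (median 0.04), and 4 rose and 2 fell with siTAZ (0.00). The other 26 and 40 were not called, beside 67.1% and 34.6% of all genes called in these comparisons. KIF3B and KIF3A, the motor subunits of kinesin-2, rose with siYAP by 0.96 (SE 0.04) and 0.77 (SE 0.06), and the transition zone gene CC2D2A fell by 1.03 (SE 0.09) on the log2 scale (edgeR adjusted p = 1.12e-30, 1.87e-18 and 6.02e-17). KIF3B and the transport subunits WDR19 and IFT27 rose with siTAZ by 0.27 (SE 0.04), 0.36 (SE 0.08) and 0.46 (SE 0.12) on the log2 scale (edgeR adjusted p = 2.93e-07, 7.17e-05 and 0.00124).

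**Figure D4:**
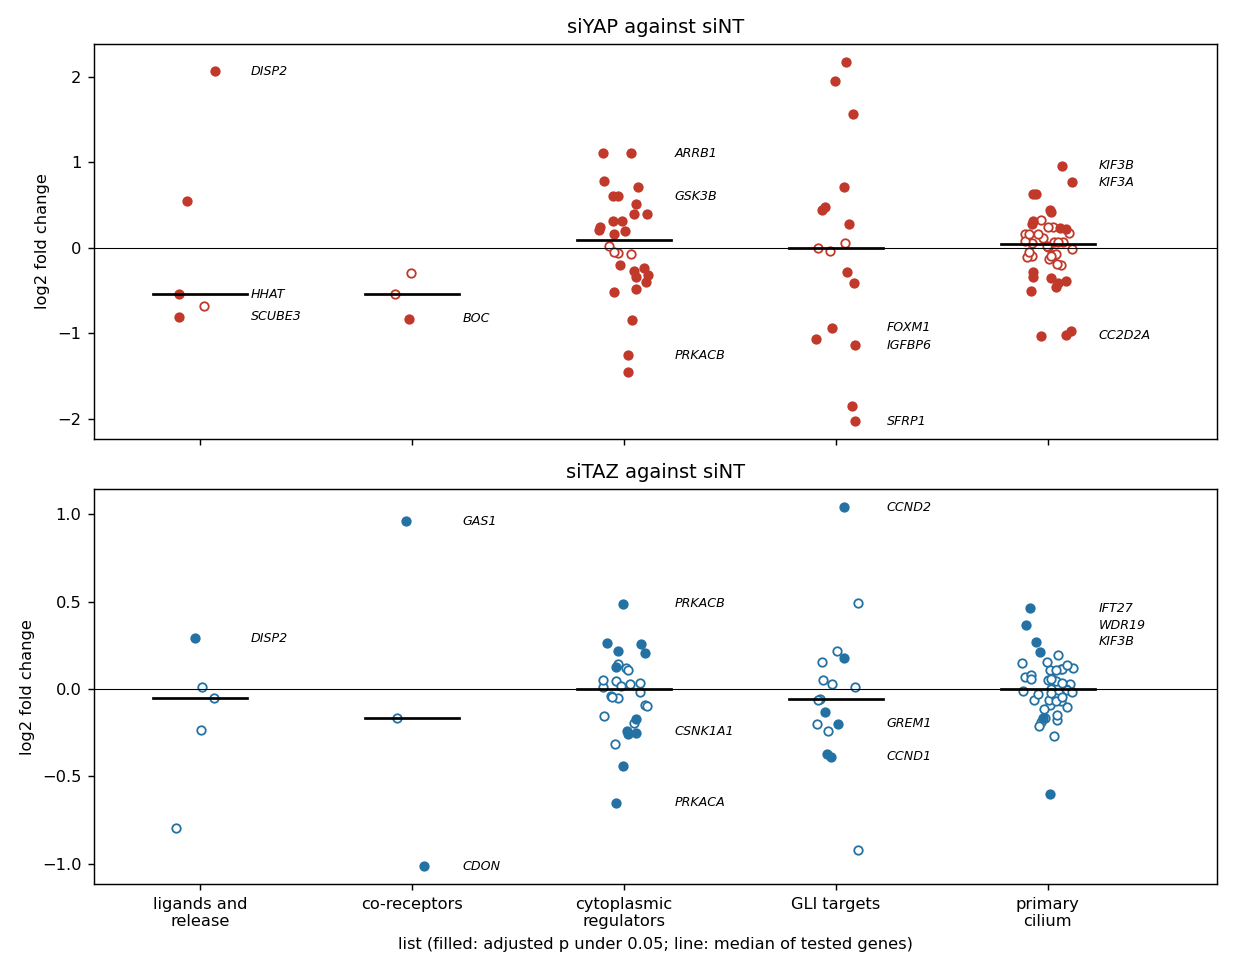
Log2 fold change of each tested gene in the 5 pathway lists for siYAP (upper panel) and siTAZ (lower panel) against siNT; filled points have an edgeR adjusted p under 0.05, bars are list medians, and the axes of the panels differ. Changes reach from -2.03 to 2.17 among GLI targets with siYAP, and the medians of the cytoplasmic, target and cilium lists lie within 0.09 of 0.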

How the data were processed

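RNA of 9 LX2 libraries was sequenced, 3 per group. The authors deposited raw read counts per Ensembl gene and library; per the submitters' processing notes, the tools were STAR 2.5.0c, HTSeq, Picard, SAMtools and Trim Galore, with the mouse build mm10 listed, although all identifiers are human. The build, annotation and strand setting of the counts are therefore not given in the sources used here. Groups follow the sample labels, since the design text lists siNT 2 times and siTAZ not at all.

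From these counts, edgeR 4.0.16 in R 4.3.3 kept genes by filterByExpr (minimum count 10, minimum total 15), scaled libraries by TMM and fitted a robust quasi-likelihood model over the 9 libraries. Tests were two-sided, with Benjamini-Hochberg adjustment over 15560 genes and calls at 0.05; intervals are 95%, from the SE. The lines without a gene, 4.73 to 7.49% of counts in no feature and 6.33 to 6.91% ambiguous, stayed out of library sizes and tests. Symbols were found for 34670 of 36601 identifiers. Exon lengths come from GENCODE 29, and promoters from RefSeq (GRCh38.p14).

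The members and the 5 pathway lists were chosen with earlier results of these data known. Named from each list were up to 3 called genes with the smallest adjusted p in each comparison with siNT, and ligand and co-receptor genes under 1 CPM in every group. For each member, up to 2 genes most like it by Pearson's r were named. Some genes are not reported here and were left out of the lists, their counts and the named genes. Alternatives were RLE and upper-quartile scaling, 2 other filters, the replicate number as a block, the compared groups alone, DESeq2 1.42.0, limma-voom (limma 3.58.1), a stricter adjusted p, a test against a fold of 1.5, and each library left out in turn.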

Additional observations from a re-analysis of the deposited data

Results flagged for a closer look

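The effects of the 2 knockdowns differed for 5 of the 7 Hedgehog members by the direct test of siTAZ against siYAP (edgeR's quasi-likelihood test, Benjamini-Hochberg adjusted over all genes). That test called 66.2% of all genes, so a count of 5 of 7 lay near the general share. The log2 differences, siTAZ minus siYAP, were 1.32 for GLI1, 1.02 for PTCH1, 0.95 for SMO, 0.77 for GLI2 and -0.49 for GLI3.

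The same test separated the knockdowns for the pathway genes named above as called, except WDR19 and IFT27. Those genes were named for the smallest adjusted p against siNT in these same libraries. Most could therefore be foreseen to separate, as 66.2% of all genes did, and the number that did carries no support. Higher in siTAZ were SFRP1 by 1.89, PRKACB by 1.74, GAS1 by 1.5, CC2D2A by 1.17, IGFBP6 by 1.15, FOXM1 by 0.99, BOC by 0.66, SCUBE3 by 0.57 and HHAT by 0.55. Lower in siTAZ were DISP2 at -1.78, ARRB1 at -1.37, KIF3A at -0.93, CCND1 at -0.82, CDON at -0.72, GSK3B at -0.70, KIF3B at -0.69, CCND2 at -0.53, PRKACA at -0.45, CSNK1A1 at -0.17 and GREM1 at -0.16.

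The share of counts in no annotated gene was also above that of siNT (4.93 ± 0.20%, n = 3), at 6.68 ± 0.75% in siYAP and 5.57 ± 0.052% in siTAZ. Its part in the Hedgehog values was not tested.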

How the results depend on the processing

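Called members numbered 5, 3 and 5 in siYAP against siNT, siTAZ against siNT and siTAZ against siYAP, and these counts were the same under every alternative run except the test against a fold of 1.5, which gave 1, 1 and 4. That test called 3852, 342 and 3633 genes in the 3 comparisons, in place of 10448, 5391 and 10298. With the replicate block the calls were 10434, 5413 and 10268 genes and 5, 3 and 5 members. Same-numbered libraries of different groups deviated together with r of -0.014 to 0.054, and differently numbered ones with r of -0.042 to 0.047. These values show no strong shift shared by number. Whether the numbers pair the libraries stays unknown, since the labels do not say what they share. Of 399 member values under alternatives 389 kept direction and side of the threshold, and 7 lost the call, all against the fold of 1.5. The sign turned for 3 values that were not called: SMO in siTAZ against siNT, at 0.003 without siNT replicate 3 and 0.024 without siTAZ replicate 3 (-0.1 to 0.024 over the libraries left out), and SUFU in siTAZ against siYAP, at 0.007 without siTAZ replicate 2 (-0.073 to 0.007). The HHIP fall with siYAP rested on few counts, and its adjusted p reached 0.0433. Upper-quartile scaling turned the balance of calls in siTAZ against siNT from 2559 higher and 2832 lower to 2865 and 2616. That of siYAP against siNT, 5254 and 5194, turned under several settings, among them no filter (5248 and 5385) and an adjusted p under 0.01 (4591 and 4654). In siTAZ against siYAP the balance, 5133 and 5165, also turned under several settings, among them no filter (5293 and 5247). Upper-quartile scaling moved the median of all genes by at most 0.032 on the log2 scale.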
